A study of Mus musculus with 54 samples.

Results

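DNA methylation is written, copied and removed by a small set of enzymes, and 8 of the 23284 genes in the count tables make up the set described here. They were chosen by symbol, with earlier results of these data known: Dnmt1, Uhrf1, Dnmt3a, Dnmt3b, Dnmt3l, Tet1, Tet2 and Tet3. All 8 were found in the table of whole testis and in the table of sorted germ cells, and their loci were searched in the 7 peak lists of the same study. The study asked what the testis loses when the insulator protein CTCF is reduced and its germ-line paralog BORIS (gene name Ctcfl) is absent. C57BL/6 mice of 3 months had 1 of 4 genotypes: WT, CTCF_HET (Ctcf+/- Boris+/+), BORIS_KO (Ctcf+/+ Boris-/-) or CM, the combined mutant (Ctcf+/- Boris-/-), which the sample titles call DKO although 1 Ctcf allele is intact. RNA was taken from 3 preparations per genotype that are called whole testis here but were suspensions enriched for germ cells, each pooled from 4 mice. Round spermatids (RS, the haploid cells after meiosis) and spermatocytes (SC, the cells in meiosis) were purified by elutriation and DNA-dye sorting, with 3 libraries per genotype and cell type and 2 for WT spermatocytes, which made 35 RNA libraries among the 54 samples.

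In textbook terms, Dnmt3a and Dnmt3b set new methyl marks on CpG sites, guided in the germ line by Dnmt3l, which has no catalytic activity of its own. Dnmt1 copies the marks after replication and is brought to hemimethylated DNA by Uhrf1, a ubiquitin ligase that binds such sites. The Tet enzymes oxidise methylcytosine and so start its removal. Most methylation of the male germ line is set before birth in cells that precede meiosis. CTCF itself binds many of its sites only when they are unmethylated.

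The members lie on 8 loci of the mouse assembly mm9. On the minus strand are Dnmt1 (ENSMUSG00000004099, chr9:20711650-20757317), Tet1 (chr10:62267318-62361866), Tet2 (chr3:133126643-133207354) and Tet3 (chr6:83312367-83391672). On the plus strand are Uhrf1 (chr17:56442744-56462909), Dnmt3a (chr12:3806007-3914443), Dnmt3b (chr2:153475186-153513466) and Dnmt3l (chr10:77504692-77526367). Dnmt3l shares part of its span with Aire, and Dnmt3b overlaps 7530422B04Rik and may share reads with the related gene Gm14490. Reads of Dnmt3b may therefore have been divided, and its counts are less certain than those of the other members.

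Because CTCF is the protein whose dose was altered, the sequences under its peaks at these genes come first. Each line below is the plus strand of mm9, 5′ to 3′, and capitals mark a 7-letter core of the CTCF motif. The words searched were AGGGGGC or AGGTGGC or AGAGGGC or AGATGGC, on both strands, in 300 bases centred on the summit of the peak. Of all 34625 WT CTCF peaks 65.8% held such a word, so its presence is common and shows nothing particular about these genes. The word lay in the promoter peak of Dnmt1 and in the intronic peak of Dnmt3l, both of which had an overlapping CTCF peak in CM (kept). It also lay in peaks of Dnmt3a, Tet1 and Uhrf1 introns that had none (lost). Kept means only that the WT and CM peaks overlapped, not that the marked word was bound in CM. The Dnmt1 word starts at chr9:20757478, outside the CM peak (chr9:20757506-20757725). The Dnmt3l word starts at chr10:77506295, inside its CM peak (chr10:77506199-77506447).
Dnmt1, kept, chr9:20757452-20757511: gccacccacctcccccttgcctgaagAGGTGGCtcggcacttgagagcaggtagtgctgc
Dnmt3l, kept, chr10:77506284-77506313: tgcgcctcggcGCCCCCTgctggcccacgc
Dnmt3a, lost, chr12:3817240-3817299: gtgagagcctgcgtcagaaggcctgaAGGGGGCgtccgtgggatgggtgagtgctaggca
Dnmt3a, lost, chr12:3852682-3852741: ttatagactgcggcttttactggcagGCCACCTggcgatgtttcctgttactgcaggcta
Dnmt3a, lost, chr12:3871821-3871880: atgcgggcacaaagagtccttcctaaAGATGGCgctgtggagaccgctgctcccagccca
Tet1, lost, chr10:62344108-62344167: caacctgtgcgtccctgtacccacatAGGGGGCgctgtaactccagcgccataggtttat
Uhrf1, lost, chr17:56445422-56445481: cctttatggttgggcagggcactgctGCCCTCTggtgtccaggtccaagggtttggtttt
The Dnmt3l site lies 1 base from the summit of its peak and also within the 5′ untranslated region of Aire.

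Depth ran from 10437683 to 42055813 counts per library for whole testis, from 47740650 to 98545423 for RS and from 53337530 to 88946702 for SC, which limits the values of the rare Tet transcripts most. The labels were checked on Ctcf itself. In whole testis it was 40.9 to 45.1 CPM (counts scaled to library size by the TMM method) in WT, 22.9 to 30.3 in CTCF_HET and 24.3 to 26.8 in CM, a log2 change of -0.66 ± 0.18 (adjusted p = 1.00) and -0.74 ± 0.21 (0.0329). In the sorted libraries labelled CM it was not lower: 171, 45.5 and 38.4 CPM in round spermatids against 28.4 to 48.0 in WT, and 89.3, 34.8 and 36.4 in spermatocytes against 33.6 and 36.0. Nor was it lower in the spermatocytes labelled CTCF_HET, at 41.7, 49.5 and 29.9 CPM. Rltpr, a neighbour of Ctcf, separated the genotypes with a single Ctcf allele in every preparation, with at most 2.94 CPM in any WT or BORIS_KO library and at least 28.6 in any library labelled CTCF_HET or CM. Rltpr was high in CTCF_HET and CM alike and does not tell them apart, so the name CM follows the labels. Ctcfl RNA was 0.509 to 0.711 CPM in WT and 0.165 to 0.401 in BORIS_KO whole testis, and 2.80 to 4.91 and 2.06 to 2.38 in round spermatids, where reads outside the deleted part would not check the knockout. It was 0.122 to 0.194 CPM in CM whole testis and 1.08 to 2.54 in CM round spermatids. In CTCF_HET it was 0.330 to 0.812 and 2.56 to 3.39 CPM. Some sorted libraries also stood apart in how few genes had 1 to 9 counts: 1.36 to 4.42% of detected genes in CTCF_HET spermatocytes, 2.39 to 12.4% in CM spermatocytes and 2.46 to 7.08% in CM round spermatids, against 21.3% in both WT spermatocyte libraries and 10.8 to 17.2% in WT round spermatids. Rare members had counts of 0 in several of those libraries.

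Per kilobase of exon, merged over all annotated transcripts of a gene, the maintenance pair dominated in every WT preparation. The order of the other members depends on that length, which was 16642 bases for Dnmt3a and 2988 for Dnmt3l. In CPM alone Dnmt3a stood above Dnmt3l in WT whole testis (16.1 against 6.19). It also stood above Dnmt3b in WT round spermatids (3.61 against 1.63). In whole testis Uhrf1 stood at 36.5 ± 9.1 CPM per kb (mean ± SD, n = 3) and Dnmt1 at 10.3 ± 1.67, followed by Dnmt3l at 2.07 ± 0.252, Dnmt3a at 0.969 ± 0.236, Dnmt3b at 0.563 ± 0.0505 and Tet3 at 0.401 ± 0.0363. Tet2, at 0.230 ± 0.0648, and Tet1, at 0.122 ± 0.044, came last and their libraries overlapped. The order in round spermatids was Uhrf1 (11.6 ± 2.04), Dnmt1 (4.48 ± 0.375), Dnmt3l (1.13 ± 0.16), Dnmt3b (0.319 ± 0.0844), Dnmt3a (0.217 ± 0.0154), Tet3 (0.168 ± 0.0513), Tet1 (0.0634 ± 0.0368) and Tet2 (0.0204 ± 0.0145), where Dnmt3a overlapped Tet3 and Tet1 overlapped Tet2. Spermatocytes differed in that Dnmt1, at 40.7 ± 0.438 CPM per kb (n = 2), stood above Uhrf1, at 32.5 ± 1.24, and Dnmt3b, at 0.626, stood above Dnmt3l, at 0.117. Dnmt3a (0.031) and the Tet genes (0.00865 to 0.0242) were close to nothing in WT spermatocytes. The whole-testis and sorted libraries were made by different methods (rRNA depletion and poly(A) selection), so levels are not compared between them.

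**Figure D1:**
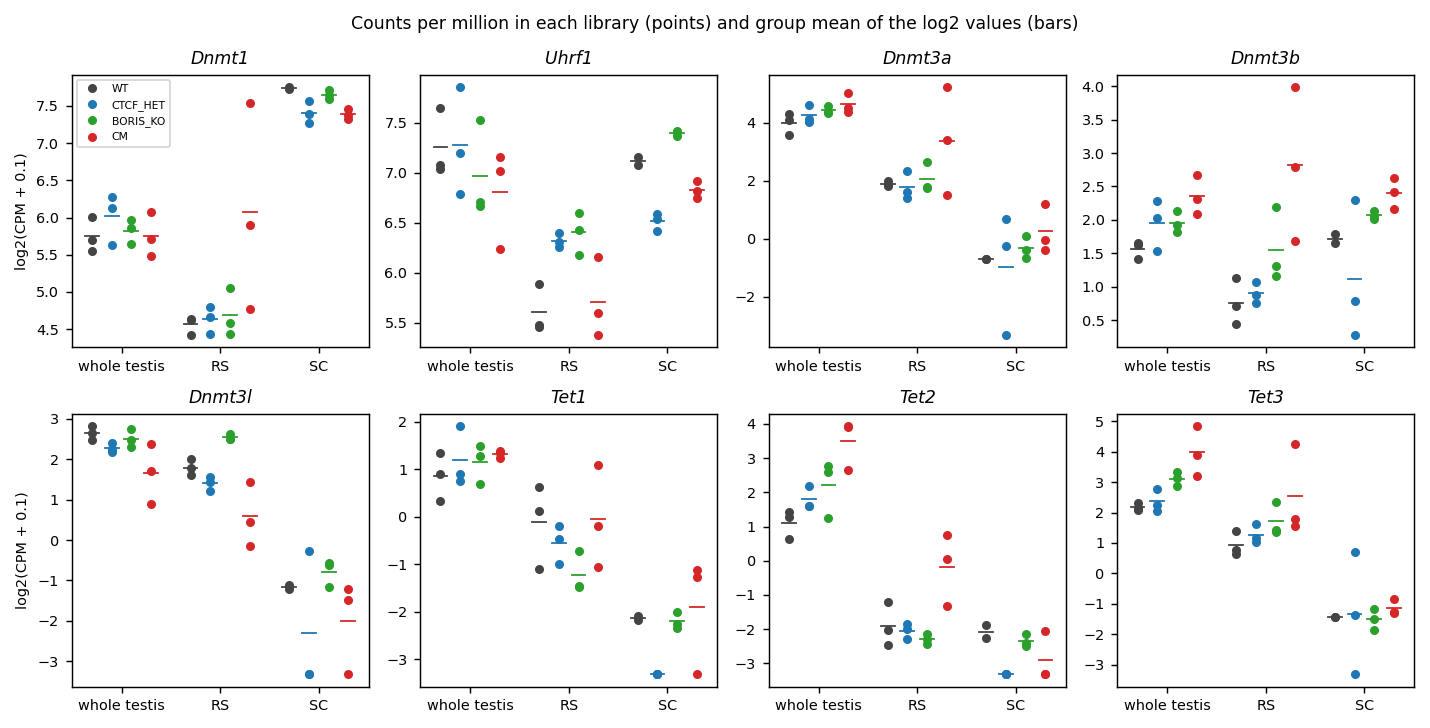
Level of each member in every library, as log2(CPM + 0.1) on the vertical axis, for whole testis, round spermatids (RS) and spermatocytes (SC). Points are libraries coloured by genotype and bars are group means of the log2 values. Dnmt1 lay between 154.5 and 215.7 CPM in the spermatocyte libraries and between 21.3 and 33.0 CPM in round spermatids outside CM, and the lowest points, at a count of 0, belong to spermatocyte libraries of CTCF_HET and CM.

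The passage from spermatocyte to round spermatid in WT turned the set over. Both maintenance genes and Dnmt3b fell, and Dnmt3l, Dnmt3a, Tet1 and Tet3 rose, so that 7 of 8 members were called (edgeR quasi-likelihood F test, Benjamini-Hochberg adjusted p < 0.05), in a comparison that called 70% of all 16052 genes tested. A share of that size says little about these genes as a set, and the sizes are the result. Their median change was 1.69 on the log2 scale, against 0.0152 over all genes tested.

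Dnmt1, the maintenance methyltransferase, stood at 212.4 and 215.7 CPM in the 2 WT spermatocyte libraries and at 24.9, 24.6 and 21.3 in the 3 round spermatid libraries. Its log2 change was -3.08 ± 0.11 (SE), with an adjusted p of 3.82e-07. Uhrf1 went from 134.6 and 142.1 CPM to 59.2, 43.9 and 44.5, a log2 change of -1.40 ± 0.14 (adjusted p = 7.76e-05). In CPM per kb Dnmt1 was above Uhrf1 in the mean of the spermatocyte libraries and below it in that of the spermatid libraries.

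Dnmt3l rose most, from 0.364 and 0.334 CPM to 3.89, 2.94 and 3.34, which was 10.3-fold (log2 3.37 ± 0.28, adjusted p = 2.68e-05). Dnmt3a, the de novo enzyme, rose from 0.512 and 0.520 CPM to 3.41, 3.90 and 3.53 (log2 2.90 ± 0.25, adjusted p = 3.46e-05). Dnmt3b moved the other way, from 3.04 and 3.35 CPM to 2.10, 1.25 and 1.54 (log2 -0.87 ± 0.27, adjusted p = 0.0215). The groups did not overlap for any of these 3 genes. The call of Dnmt3b was lost without the third WT spermatid library (adjusted p = 0.053) or without either spermatocyte library, and it held in only 6 of 10 alternatives.

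Tet3 rose from 0.269 and 0.267 CPM to 2.51, 1.60 and 1.46 (log2 2.88 ± 0.38, adjusted p = 0.000337). Tet1 rose from 0.121 and 0.133 CPM, which were 9 and 10 counts, to 0.367, 0.986 and 1.44 (log2 2.94 ± 0.70, adjusted p = 0.00723). Its call was lost without the first spermatocyte library and held in 8 of 10 alternatives. The spermatid libraries of Tet1 spread over a wide range but all lay above both spermatocyte libraries. Tet2, with 8 and 13 counts in the spermatocyte libraries, did not pass the test (log2 0.50 ± 0.82, adjusted p = 0.603), and its groups overlapped. Spermatogonial markers moved in the same direction as the genes that rose: the summed level of the 8 genes was 6.56 and 6.69 CPM in WT spermatocytes and 23.1 to 28.8 in WT round spermatids, with 2 and 6 genes above 1 CPM, and their part in these changes was not tested.

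Within BORIS_KO the same contrast was in a comparison that called 83.3% of all genes. Of 7 members tested, 6 were called, each in the direction it had in WT: Dnmt1 at -2.91 and Uhrf1 at -0.96 on the log2 scale, Dnmt3l at 3.57, Tet3 at 3.71, Dnmt3a at 2.59 and Tet1 at 1.56. Dnmt3b was at -0.41 (adjusted p = 0.212) and was called at -0.86 when the third BORIS_KO spermatid library was left out (adjusted p = 0.000134). Tet2 did not reach the count filter.

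In CM 3 of 8 members were called, against 27.9% of all genes: Tet3 rose from spermatocytes to round spermatids by 4.68 ± 0.91 (adjusted p = 0.00814), Dnmt3a rose by 3.88 ± 1.00 (0.0238) and Uhrf1 fell by 1.01 ± 0.23 (0.0157) on the log2 scale. The median over all genes in this comparison was 0.126. The step of Dnmt1, the largest in WT among the genes that fell, was -0.77 ± 0.61 and did not pass the test (adjusted p = 0.395). It was -1.89 and called without the second CM spermatid library (adjusted p = 0.00588). The calls of Dnmt3a and Uhrf1 were lost without CM spermatocyte library 1 (3.66 and -0.98) or 2 (3.55 and -1.01), which left Tet3 alone, and that of Uhrf1 also without the third CM spermatid library (-0.87).

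**Figure D2:**
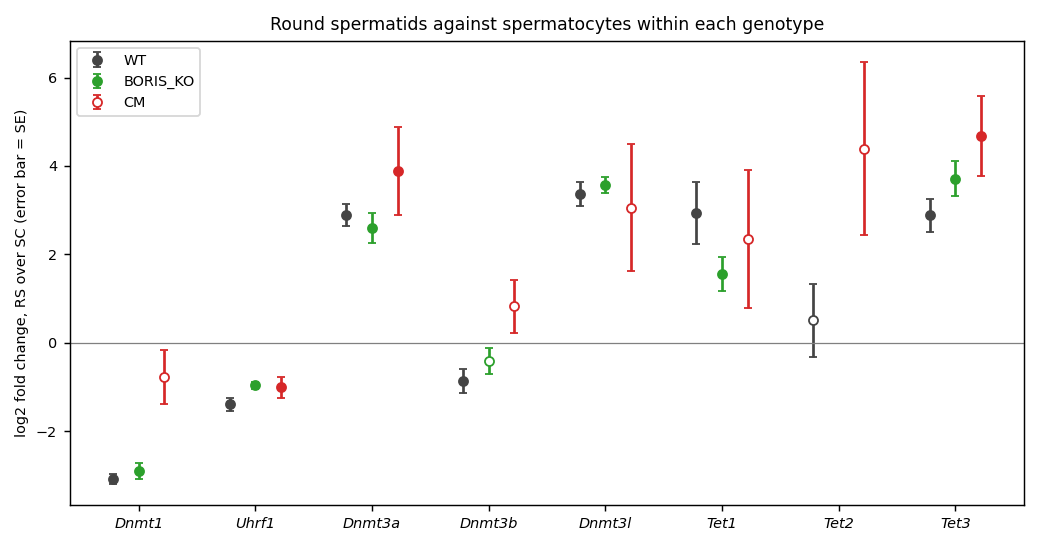
Log2 fold change of round spermatids over spermatocytes for each member (vertical axis) within WT, BORIS_KO and CM, with SE as error bars; filled points passed an adjusted p of 0.05 in edgeR. Dnmt1 was at -3.08 in WT and -2.91 in BORIS_KO but at -0.77 with a wide error in CM, while Dnmt3a and Tet3 were above 2.5 in all 3 genotypes.

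In whole testis CTCF_HET left every member under the threshold: 0 of 8 members were called, 0 had an unadjusted p under 0.05 and DESeq2 called 0 as well, in a comparison where edgeR called 0.00621% of all genes, 424 genes had an unadjusted p under 0.05 and DESeq2 called 3. The largest change was that of Tet2, from 1.44, 2.58 and 2.31 CPM in WT to 2.93, 4.46 and 2.94 (log2 0.73 ± 0.34, adjusted p = 1.00), with no overlap between the groups. Dnmt3l was lower in all 3 CTCF_HET libraries, at 5.21, 4.46 and 4.67 CPM against 6.19, 5.43 and 6.93 in WT (log2 -0.37 ± 0.23, adjusted p = 1.00). The median of the members was 0.263, against 0.0109 over all genes.

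In BORIS_KO whole testis Tet3 and Tet2 were the members furthest from WT. Tet3 was 7.21, 8.66 and 10.1 CPM in BORIS_KO and 4.16, 4.90 and 4.27 in WT, with no overlap (log2 0.97 ± 0.22), and Tet2 was 2.26, 5.94 and 6.71 CPM against 1.44, 2.58 and 2.31, where the first BORIS_KO library lay within the WT range (log2 1.26 ± 0.46). Neither passed the test (adjusted p = 0.200 and 0.244), so 0 of 8 members were called, against 0.0551% of all genes. At an unadjusted p under 0.05 there were 2 members and 2717 genes. In whole testis libraries of the same replicate number varied together, and with that number as a block both were called, at 0.95 ± 0.21 for Tet3 (adjusted p = 0.0339) and 1.12 ± 0.27 for Tet2 (0.0398). DESeq2 called Tet3 alone (adjusted p = 0.0298). Beside these values, spermatogonial markers summed to 92.8 to 122 CPM in BORIS_KO and 55.5 to 71.6 in WT, of which Kit alone was 46.8, 49.3 and 72.0 CPM against 31.0, 35.3 and 16.2, and 0 of the 8 markers were called. Sertoli markers summed to 470 to 596 CPM against 265 to 410. Their part was not tested.

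The combined mutant showed the largest changes in whole testis, again in Tet2 and Tet3. Both rose, and 2 of 8 members were called, against 25.2% of all genes in either direction and 16.4% of them higher. Tet2 stood at 15.2, 6.16 and 14.9 CPM in CM, above every WT library (1.44, 2.58 and 2.31), a 5.72-fold rise (log2 2.52 ± 0.43, adjusted p = 0.0154). Tet3 stood at 28.6, 9.15 and 14.6 CPM against 4.16, 4.90 and 4.27, a 3.89-fold rise (log2 1.96 ± 0.42, adjusted p = 0.0181). The second CM library was the lowest for both genes and still lay above all WT libraries. Both calls were lost without the second WT, the third WT or the third CM library (adjusted p = 0.0572 to 0.0688), and that of Tet3 also without the first WT library (0.0516). Over all genes the calls fell from 4135 to 11, 3 and 4 without those 3 libraries, and to 1824 without the first WT library. Their log2 changes ranged from 1.44 to 2.88 over all 11 alternatives.

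Tet1 and the writers did not pass the test in CM whole testis. Tet1 stood at 2.25, 2.50 and 2.44 CPM against 1.16, 2.45 and 1.78 in WT, and the groups overlapped (log2 0.42 ± 0.36, adjusted p = 0.403). Dnmt3b was 6.27, 4.15 and 4.88 CPM against 3.00, 3.05 and 2.58 in WT (log2 0.81 ± 0.30, adjusted p = 0.0718), and Dnmt3a 32.1, 20.7 and 22.6 CPM against 19.7, 16.8 and 11.9 (log2 0.62 ± 0.28, adjusted p = 0.128). Neither overlapped WT. Dnmt3l was the member that lay lower, at 1.77, 5.12 and 3.15 CPM against 6.19, 5.43 and 6.93 (log2 -0.91 ± 0.41, adjusted p = 0.125). With the replicate block these 3 genes passed as well, which made 5 members against 43.0% of all genes: Dnmt3a at 0.63 (adjusted p = 0.0428), Dnmt3b at 0.80 (0.0484) and Dnmt3l at -1.03 (0.0329). Dnmt3b and Dnmt3l, at 1.00 and -1.33, were also called without the second CM library. Dnmt1, at 67.2, 52.5 and 44.7 CPM, and Uhrf1, at 142.4, 128.9 and 75.5, overlapped WT, with log2 changes of -0.00 ± 0.24 and -0.44 ± 0.30. The median change of the members was 0.521, against 0.00349 over all genes.

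Other cell types moved with CM in these preparations. The summed level of 8 spermatogonial markers was 403, 118 and 242 CPM in the 3 CM libraries and 55.5 to 71.6 in WT. Kit, which is also made outside the germ line, accounted for 348, 76.7 and 185 CPM of these sums. Kit and Zbtb16 were the 2 of 8 markers called, and the median log2 change of the list was 0.114. The 6 Leydig markers summed to 1738 to 3438 CPM against 355 to 558, the 7 Sertoli markers in the table to 649 to 1332 against 265 to 410, and the 5 macrophage markers to 122 to 445 against 33.2 to 95.6. No marker of these 4 lists was at 0 in a CM or WT library. Round spermatid markers summed to 3737 to 11690 CPM in CM and to 12760 to 20860 in WT, and Leydig markers in BORIS_KO to 653 to 1410. The second CM library, lowest for Tet2 and Tet3, was also the lowest of the 3 for each of these 4 lists. Their part in the changes of the members was not tested, and in a mixed preparation fewer cells of a type and less RNA per cell cannot be told apart.

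Whether CM differed from BORIS_KO, which lacks BORIS alone, was tested directly. No member passed: 0 of 8 were called by edgeR and by DESeq2, against 0.006% of all genes in edgeR (1201 genes in DESeq2), and 2 members had an unadjusted p under 0.05. These were Tet2 (log2 1.26 ± 0.48, adjusted p = 0.186) and Tet3 (0.98 ± 0.40, 0.206), higher in CM. No member was called with the replicate block either, which called 7.36% of all genes. The interaction of the Ctcf and Boris genotypes over the 12 whole-testis libraries called 0 of 8 members and 0% of 17185 genes, with 0 members and 1713 genes at an unadjusted p under 0.05, and DESeq2 called 0 members and 38 genes. The interaction was 0.78 ± 0.51 for Tet3 and 0.56 ± 0.63 for Tet2. All contrasts with WT within a preparation share the same WT libraries, so a direction that recurs between genotypes is not independent.

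**Figure D3:**
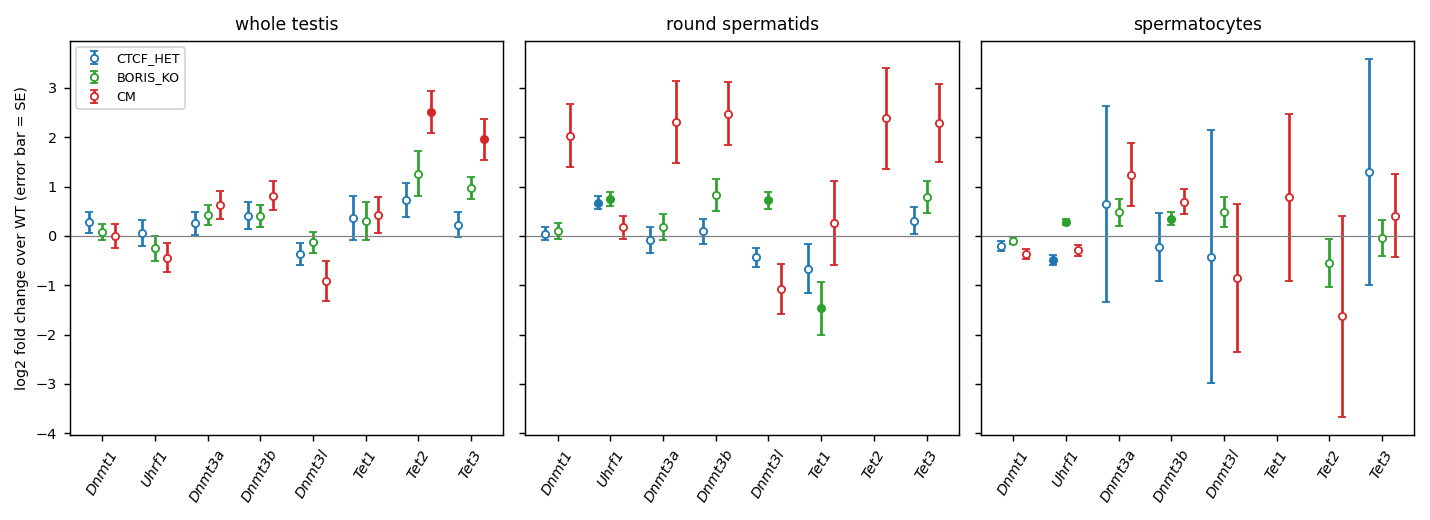
Log2 fold change of each mutant genotype over WT (vertical axis) for each member in whole testis, round spermatids and spermatocytes, with SE as error bars. Filled points passed an adjusted p of 0.05 in edgeR and genes under the count filter have no point: in whole testis only Tet2 (2.52) and Tet3 (1.96) in CM are filled, and the widest errors are those of rare genes in spermatocytes.

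In sorted round spermatids Uhrf1 was the member that moved in both single mutants. In CTCF_HET it stood at 79.3, 84.2 and 76.1 CPM, above all WT libraries (59.2, 43.9 and 44.5), a 1.60-fold rise (log2 0.68 ± 0.13, adjusted p = 0.00968). It was the only one of 7 members tested that was called, against 22.3% of all genes, and the call was lost without WT library 2 or 3 (0.61 and 0.62, adjusted p = 0.0546 and 0.0538). Dnmt3l lay lower than in any WT library, at 2.22, 2.61 and 2.85 CPM against 3.89, 2.94 and 3.34, and did not pass the test (log2 -0.43 ± 0.19, adjusted p = 0.134). The 7 members had a median change of 0.047, against 0.00294 over all genes.

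In BORIS_KO round spermatids 3 of 7 members were called, against 55.8% of all genes. Uhrf1 stood at 96.9, 85.8 and 72.4 CPM (log2 0.75 ± 0.15, adjusted p = 0.00209). Dnmt3l rose from 3.89, 2.94 and 3.34 CPM to 5.57, 6.08 and 5.59 (log2 0.72 ± 0.17, adjusted p = 0.0053). Its call was lost in the joint fit over all groups (adjusted p = 0.657), where that of Uhrf1 held. Both genes were above WT in all 3 libraries, and Dnmt3l, unlike Uhrf1, lay on opposite sides of WT in the 2 single mutants. Tet1 fell, with 0.263, 0.506 and 0.259 CPM against 0.367, 0.986 and 1.44 (log2 -1.47 ± 0.54, adjusted p = 0.0437). The groups overlapped, and its call was lost without WT library 2 (-1.43) or 3 (-1.002) and without BORIS_KO library 1 (-1.31) or 3 (-1.29). Dnmt3b (log2 0.82 ± 0.32, adjusted p = 0.0551) and Tet3 (0.80 ± 0.33, 0.063) were just outside the threshold, and both were called without the first WT or the first BORIS_KO library. Dnmt3b stood at 2.13, 2.37 and 4.47 CPM against 2.10, 1.25 and 1.54 in WT, and Tet3 at 2.45, 2.60 and 4.98 against 2.51, 1.60 and 1.46, so the third BORIS_KO library was the highest for both. It was also the highest for the sum of spermatogonial markers (22.2, 24.5 and 40.1 CPM, against 23.1 to 28.8 in WT), whose part was not tested. Spermatocyte markers summed to 764 to 840 CPM in BORIS_KO and 1505 to 1870 in WT, with 1 of 8 higher, 5 lower and a median log2 change of -1.42, and their part was not tested either. The median of the 7 members was 0.719, against -0.0132 over all genes.

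The CM round spermatids were dominated by 1 library. Dnmt1 stood at 27.1, 185.5 and 59.7 CPM in the 3 CM libraries, so the second library came close to the level of spermatocytes, and Dnmt3a stood at 2.75, 37.5 and 10.4 CPM. Dnmt3b was 3.11, 15.8 and 6.83 CPM and Tet3 2.87, 19.1 and 3.39. In each of these 4 genes the second library was the highest, and all 3 libraries were above WT for Dnmt1, Dnmt3b and Tet3 but not for Dnmt3a. Dnmt3l ran against the others, at 2.62, 1.26 and 0.810 CPM against 3.89, 2.94 and 3.34 in WT.

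None of the 8 members passed in CM round spermatids with edgeR, which called 0.00654% of all genes, while 4 members and 3136 genes had an unadjusted p under 0.05. The fitted log2 changes were 2.03 ± 0.64 for Dnmt1 (adjusted p = 0.177), 2.32 ± 0.83 for Dnmt3a (0.190), 2.48 ± 0.63 for Dnmt3b (0.155), 2.28 ± 0.79 for Tet3 (0.182) and -1.07 ± 0.51 for Dnmt3l (0.284). DESeq2 called the first 4 (adjusted p = 0.0086, 0.0191, 0.0028 and 0.0216). Without the first CM library edgeR called Dnmt1, Dnmt3a and Dnmt3b, at 2.49, 2.84 and 2.90. Without the second CM library the changes were 0.89 for Dnmt1, 0.88 for Dnmt3a, 1.62 for Dnmt3b and 0.76 for Tet3, the lowest over all alternatives. Tet2 stood at 0.298, 1.57 and 0.942 CPM against 0.144, 0.0821 and 0.338 in WT (log2 2.38 ± 1.03, adjusted p = 0.244), while Tet1 (0.26 ± 0.85) and Uhrf1 (0.17 ± 0.24) lay near WT with overlapping libraries. The members' median was 2.16, against -0.000125 over all genes.

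Spermatogonial markers followed the same order of libraries. Their summed level was 36.3, 361.5 and 60.8 CPM in the CM round spermatid libraries, against 23.1, 28.6 and 28.8 in WT, and 7 of the 8 genes were above 1 CPM in the second CM library. In that library Stra8 was 206 CPM, Dmrt1 91.7 and Kit 42.8, which made up most of the sum. Uchl1 was 12.1 CPM, Zbtb16 6.15, Sohlh1 1.09 and Nanos3 0.368. Gfra1 went the other way, at 1.37 CPM against 2.51 to 2.76 in WT. Of 7 markers tested in CM round spermatids 0 were called, with a median log2 change of 2.00. Spermatocyte markers summed to 1780 to 2788 CPM in CM and 1505 to 1870 in WT, and round spermatid markers to 744 to 923 against 1364 to 1576. Sertoli markers summed to 1.495 to 3.395 CPM in CM, Leydig markers to 0.945 to 1.77 and the 3 blood markers to 0. The part of these cells in the values of the members was not tested.

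**Figure D4:**
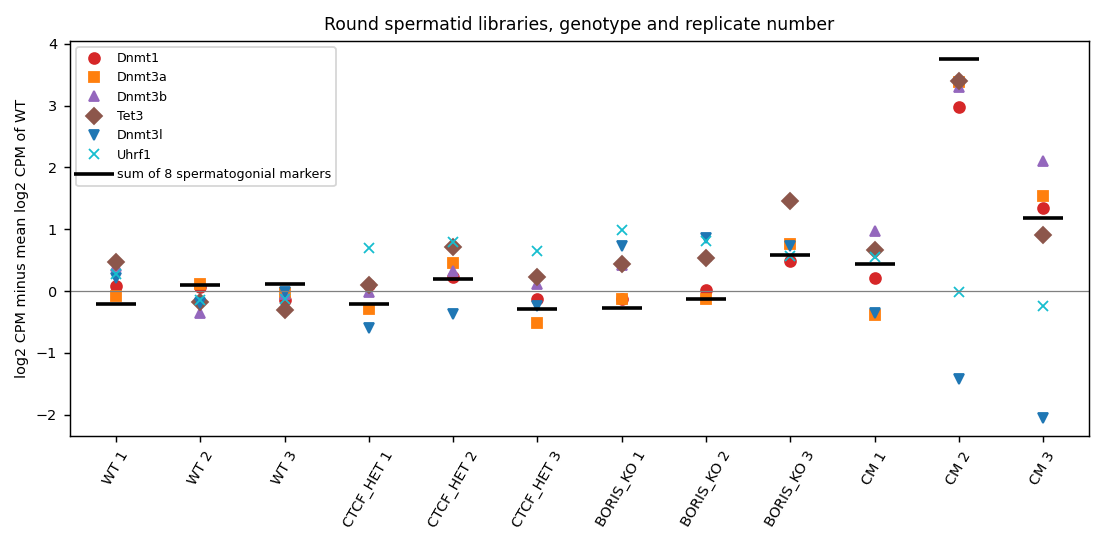
Each round spermatid library on the horizontal axis with the log2 CPM of 6 members minus their mean log2 CPM in WT (symbols), and the same difference for the summed CPM of 8 spermatogonial markers (black bars). Dnmt1, Dnmt3a, Dnmt3b, Tet3 and the marker sum (361.5 CPM) are highest in the second CM library, whereas Dnmt3l lies under 0 in all 3 CM libraries.

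In spermatocytes Uhrf1 moved in opposite directions in the single mutants. In CTCF_HET it fell, to 92.7, 85.5 and 95.7 CPM from 134.6 and 142.1 in WT (log2 -0.48 ± 0.10, adjusted p = 0.0192), and it was the 1 member called of 6 tested, against 15.5% of all genes. The call was lost without the second WT library (-0.43) and without CTCF_HET library 1 (-0.49) or 2 (-0.40). Dnmt1 was lower in every CTCF_HET library, at 154.5, 167.9 and 188.4 CPM against 212.4 and 215.7 (log2 -0.21 ± 0.10, adjusted p = 0.226). Tet1 and Tet2 had 0 counts in all 3 CTCF_HET libraries and did not reach the count filter, so no fold is given. The median of the 6 members was -0.216, against -0.0893 over all genes, and 924 of 2119 called genes were higher (54.4% of 2023 with RLE scaling). These 3 libraries are those with few genes at 1 to 9 counts, and the part of this in the differences was not tested.

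In BORIS_KO spermatocytes Uhrf1 rose, to 169.3, 170.4 and 164.6 CPM (log2 0.28 ± 0.06, adjusted p = 0.00157). This call was lost in the joint fit over all groups (adjusted p = 0.504). Dnmt3b rose from 3.04 and 3.35 CPM to 4.28, 3.93 and 4.06 (log2 0.35 ± 0.12, adjusted p = 0.0279). These 2 of 7 members were called, against 57.2% of all genes, and neither overlapped WT. Spermatocyte markers summed to 4051 to 4191 CPM in these libraries and to 5490 and 6494 in WT, with 6 of 8 lower, and their part was not tested. The call of Dnmt3b was lost in DESeq2 (0.34), with the block (0.35) and without WT library 1 (0.28) or 2 (0.43) or BORIS_KO library 3 (0.35). The members' median was 0.279, against 0.0219 over all genes.

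In CM spermatocytes 0 of 8 members passed, against 0.604% of all genes, with 3 members and 4391 genes at an unadjusted p under 0.05. Dnmt1 was 160.6, 176.1 and 165.5 CPM against 212.4 and 215.7 in WT (log2 -0.36 ± 0.10, adjusted p = 0.0817), and DESeq2 called it. Uhrf1 was 120.9, 112.6 and 106.9 CPM against 134.6 and 142.1 (log2 -0.29 ± 0.11, adjusted p = 0.137). Dnmt3b was 4.38, 5.22 and 6.05 CPM against 3.04 and 3.35 (log2 0.70 ± 0.25, adjusted p = 0.132). All 3 genes lay outside the WT range in every CM library, but so did Dnmt3a, Dnmt3l and Tet3. The first 3 were called without the first CM library, at -0.32, -0.33 and 0.81, in a fit that called 38.9% of all genes. The median of the members was 0.0576, against 0.00943 over all genes.

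Differences of an effect between the cell types were tested as such. The CM effect in round spermatids minus that in spermatocytes was called for 0 of 8 members, against 3.51% of all genes, with 2 members at an unadjusted p under 0.05. These were Dnmt1 (2.28 ± 0.72, adjusted p = 0.128) and Dnmt3b (1.68 ± 0.73, 0.299). Dnmt1 was called by DESeq2 (2.16, adjusted p = 0.0394) and without the first CM spermatid library (2.72, 0.0203). For CTCF_HET and BORIS_KO the same contrast was added after the values had been seen. With CTCF_HET 3 of 8 members were called, against 33.6% of all genes. The change of Uhrf1, 1.26 ± 0.17 higher in round spermatids than in spermatocytes (adjusted p = 0.00129), stood beside a median of 0.334 over all genes. With RLE scaling it was 0.89 beside a median of -0.0344 (adjusted p = 0.00201). Tet1 and Tet2 were called as well, on the strength of the 0 counts in CTCF_HET spermatocytes, and their fitted sizes are no bound. With BORIS_KO 0 of 8 members were called by edgeR and by DESeq2, against 13.4% of all genes; 1 had an unadjusted p under 0.05, Uhrf1 (0.39 ± 0.16, adjusted p = 0.124), which was called at 0.66 without the first WT spermatid library (0.000836).

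CTCF was mapped in germ cells of WT and CM, and BORIS in those of WT. Each deposited list stands for 1 antibody and genotype without replicate values, and heights are not compared between lists. Within 5 kb of the members the WT list held 10 CTCF peaks: 5 at Dnmt3a and 1 each at Dnmt1, Dnmt3b, Dnmt3l, Tet1 and Uhrf1. There was none at Tet2 or Tet3, the 2 genes that rose in CM whole testis. Of the 10 peaks, 7 had no overlapping CM peak, against 43.9% of all 34625 WT CTCF peaks.

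The kept peaks were those of Dnmt1, of the Dnmt3a promoter and of Dnmt3l. The Dnmt1 peak (chr9:20756988-20757745, height 631) lay with its summit 197 bases upstream of the start, and its CM peak had a height of 124. The Dnmt3a promoter peak (chr12:3806106-3807036, height 1337) had its summit at 3806395 and overlapped a CM CTCF peak of height 102 (chr12:3806315-3806482). It also overlapped, at its end, a BORIS peak of height 64 (chr12:3806894-3807060) with its summit at 3806991. That BORIS peak did not overlap the CM CTCF peak. Tallest of all was the peak in an intron of Dnmt3l (chr10:77505987-77506685, height 3152), 1267 bases from the nearest Dnmt3l start and 56 bases from that of Aire, with a BORIS peak of height 425 and a CM peak of height 295. These 3 were also the tallest WT CTCF peaks of the set.

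The lost peaks were lower. At Dnmt3a they had heights of 155, 142 and 482 in introns and 181 in a coding exon. The Dnmt3b promoter peak (chr2:153475263-153475965, height 187, 167 bases from a start) was lost and held no core word. Tet1 (chr10:62343983-62344217, height 251) and Uhrf1 (chr17:56445238-56445616, height 149) each lost the single CTCF peak they had, in introns. In CM a peak without a WT counterpart lay in an intron of Dnmt3b (chr2:153494538-153494752, height 173), 473 bases upstream of an internal start. BORIS peaks without CTCF lay at the Uhrf1 promoter (chr17:56443496-56443638, height 96) and near a Dnmt3a start (height 47). Both CTCF lists hold only peaks of a height of at least 100, so a peak that fell under it counts as lost.

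**Figure D5:**
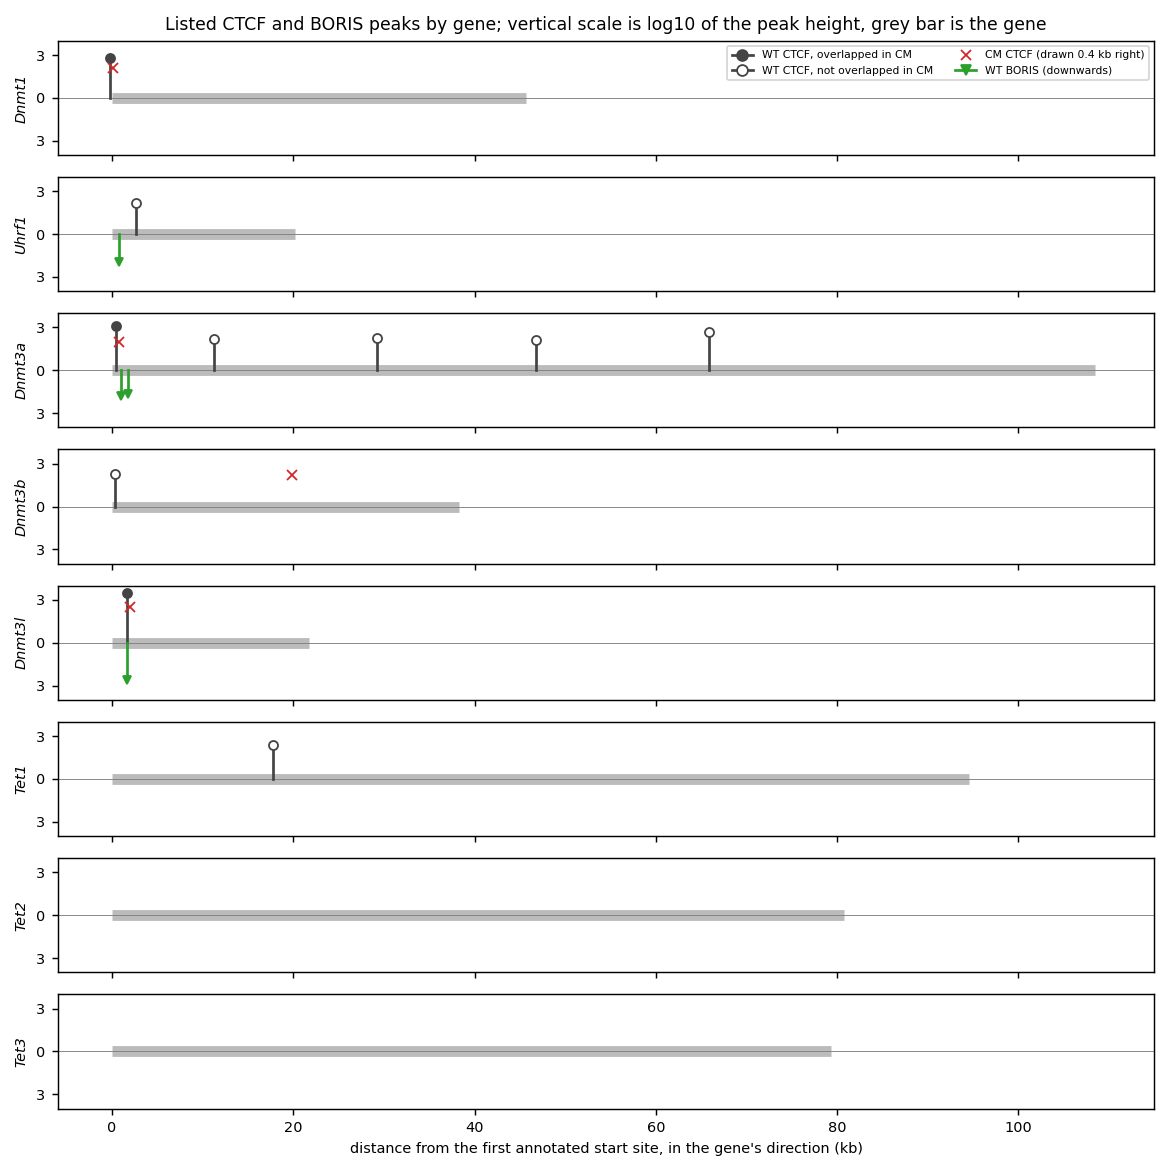
Listed CTCF and BORIS peaks along each member, with distance from the first annotated start in kb on the horizontal axis and log10 of peak height on the vertical axis, upwards for CTCF and downwards for BORIS; grey bars are the genes. Filled circles are the 3 WT CTCF peaks with an overlapping CM peak, open circles the 7 without, and Tet2 and Tet3 carry none.

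Marks of transcription were listed at these genes as MACS scores. In WT an H3K4me3 peak lay within 1 kb of a start of Dnmt1 (score 166.01), Dnmt3a (236.15), Dnmt3b (213.12), Tet3 (50.58) and Uhrf1 (221.39). The WT peak of Tet2 lay in an intron (121.7), and a promoter peak of Tet2 was listed in CM alone (354.67). A link of this peak to the RNA of Tet2 was not tested. No promoter peak of H3K4me3 was listed for Tet1 or Dnmt3l in either genotype, which does not show that the mark is absent. RNA polymerase II had no WT peak within 1 kb of any start of the set and CM peaks at Dnmt1 (168.75) and at an internal start of Dnmt3a (114.06). Scores of the WT and CM lists were not compared, and the lists differ in length and width of peaks.

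Other genes of the methylation pathway were followed in 6 lists of 61 genes: methyl-CpG readers, maintenance partners, demethylation and base excision, the methyl donor cycle, germ-line guides of methylation and chromatin cues. Between round spermatids and spermatocytes of WT, 14 of 53 tested rose and 27 fell, beside 35.8% and 34.2% of all genes, with a median log2 change of -0.49 against 0.0152. Among the guides 6 of 10 fell, with Tdrd1 at -3.86 ± 0.10 (adjusted p = 1.36e-07), Pld6 at -3.45 ± 0.13 and Piwil2 at -2.90 ± 0.12, all of the piRNA pathway. Tex15, which takes part in piRNA-directed methylation, rose by 6.34 ± 0.13, Cxxc5 by 7.05 ± 0.28 and Ogt, a glycosyltransferase that binds Tet enzymes, by 5.15 ± 0.23. In BORIS_KO 18 of 53 rose and 29 fell over the same step, beside 41.7% and 41.6% of all genes. In CM 9 of 54 rose and 11 fell, beside 16% and 11.9%.

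In CM whole testis 10 of 55 of these genes rose and 3 fell, beside 16.4% and 8.8% of all genes, with a median of -0.0163. Gadd45a, a stress gene linked to demethylation, had the smallest adjusted p among those that rose, with a log2 change of 3.54 ± 0.46 (adjusted p = 0.0151), followed by Ogt (1.70 ± 0.32, 0.0159) and Ehmt1, a histone H3K9 methyltransferase (1.43 ± 0.29, 0.0168). Cxxc5 (-0.99 ± 0.23, 0.0211), Usp7, a deubiquitinase and partner of Dnmt1 and Uhrf1 (-0.74 ± 0.22, 0.0375), and Morc1, a silencer of transposons in the male germ line (-1.24 ± 0.36, 0.0382), fell. The replicate block called 21 of these genes. In whole testis of CTCF_HET 0 of 53 were called by edgeR and by DESeq2 (3 at an unadjusted p under 0.05, 1 with the block). In that of BORIS_KO 0 of 55 were called by edgeR, with 11 at an unadjusted p under 0.05, 1 called by DESeq2 and 5 with the block.

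Round spermatids of CTCF_HET had 6 of 52 pathway genes higher and 6 lower, beside 9.51% and 12.8% of all genes. Shmt1 (0.64 ± 0.13), a serine hydroxymethyltransferase, and Piwil2 (0.60 ± 0.12) rose, while Morc1 (-1.63 ± 0.26), Cxxc5 (-1.05 ± 0.17) and Usp7 (-0.55 ± 0.11) fell. Round spermatids of BORIS_KO had 14 of 53 higher and 16 lower, beside 26.8% and 29% of all genes, with Shmt1 (1.06 ± 0.13) and the base excision scaffold Xrcc1 (1.01 ± 0.12) among those that rose and Tex15 (-1.41 ± 0.08), Usp7 (-0.92 ± 0.07) and the germ-cell helicase Ddx4 (-0.74 ± 0.07) among those that fell. The methyl donor cycle had 5 of 8 genes higher and 1 lower there. The 2 genotypes share the WT libraries, so Shmt1 and Usp7 are not independent observations.

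In spermatocytes of CTCF_HET 3 of 49 pathway genes rose and 10 fell, beside 6.77% and 8.76% of all genes, among them Cxxc5 (2.56 ± 0.45), Tex15 (2.29 ± 0.47) and Mbd2 (0.61 ± 0.15) upwards and the piRNA genes Mael (-0.61 ± 0.08), Tdrd9 (-0.53 ± 0.09) and Piwil2 (-0.54 ± 0.09) downwards. In those of BORIS_KO 15 of 49 rose and 17 fell, beside 29.1% and 28.1% of all genes, with Shmt2 (1.08 ± 0.10), Mbd3 (0.69 ± 0.06) and Shmt1 (0.63 ± 0.07) higher and Hells (-0.98 ± 0.08), Setd2 (-0.45 ± 0.06) and Usp7 (-0.39 ± 0.06) lower. Hells, a chromatin remodeller needed for methylation, belongs to the maintenance partners, of which 4 of 6 fell and 0 rose. Round spermatid markers in CTCF_HET spermatocytes had 3 of 7 tested called higher and 0 lower. Their median log2 change was 0.671, against -0.0893 over all genes. The 8 markers summed to 299 to 366 CPM there, against 367 and 394 in WT. Their part in the changes of Cxxc5 and Tex15, and that of the few genes at 1 to 9 counts, was not tested. In CM edgeR called 0 of 53 in round spermatids (17 at an unadjusted p under 0.05, 11 by DESeq2) and 0 of 53 in spermatocytes (19 and 15). The CM effect differed between the cell types for Cxxc5 (-3.87 ± 0.64, adjusted p = 0.017) and Tex15 (-2.61 ± 0.59, 0.0329). Beside this, round spermatid markers had a median log2 change of 0.763 in CM spermatocytes and -0.890 in CM round spermatids. Of these markers 0 of 7 tested and 0 of 8 tested were called. They summed to 267 to 317 CPM in CM spermatocytes, against 367 and 394 in WT, and their part was not tested.

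Likeness of pattern was measured as Pearson's r over the 8 group means of log2 CPM in sorted cells, which share libraries and batches, and is a description. Among the members Dnmt3a and Tet3 (r = 0.972) and Dnmt3a and Tet1 (0.917) were alike, Dnmt1 and Uhrf1 less so (0.73), and Dnmt1 and Dnmt3l ran in opposite directions (-0.888). The genes most like each member in the whole table were Gpn3 (0.996) and Git2 (0.994) for Dnmt1, Fam86 (0.997) and Obfc1 (0.995) for Uhrf1, Fn1 (0.998) and Adi1 (0.995) for Dnmt3a, and Psmd5 (0.987) and Zfp119a (0.98) for Dnmt3b. They were Npb (0.996) and Thsd1 (0.996) for Dnmt3l, Abca8a (0.994) and Slc16a9 (0.988) for Tet1, 1110028F11Rik (0.986) and Pogz (0.984) for Tet2, and Efna2 (0.996) and Gla (0.995) for Tet3.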

How the data were processed

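Unnormalized counts of reads, 1 row for each of 23284 gene symbols, were deposited by the authors. Whole-testis reads (rRNA-depleted RNA, Ion Proton) were aligned to mm9 with TopHat2 and then Bowtie2, and reads of sorted cells (poly(A) RNA, Illumina) with STAR. The counting tool, its annotation and its use of strand are not given in the sources used here. For CTCF and BORIS the authors deposited 1 list of peaks per antibody and genotype with peak heights, a signal whose scaling is not stated, and for RNA polymerase II and H3K4me3 lists with a MACS score.

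Counts were filtered with filterByExpr (minimum 10), scaled by TMM and tested within the groups compared with edgeR 4.0.16 in R 4.3.3 (quasi-likelihood F test, robust), adjusted over all genes by Benjamini-Hochberg and called at adjusted p < 0.05. Each SE is the log2 fold change divided by the root of F. The fits were tested on simulated counts. Alternatives were DESeq2 1.42.0, RLE scaling, no count filter, the thresholds of the study, a replicate block, all groups in one fit and each library left out in turn. The labels do not say that sorted replicates came from separate animals, so their p-values may measure technical spread only. How many of all genes had groups without overlap was not counted. A lack of overlap therefore only describes the libraries, and with so few of them it is easily met.

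Whole-testis libraries of the same replicate number deviated together in 18 of 18 pairs (r of 0.124 to 0.633), against 4 of 18 in round spermatids and 1 of 15 in spermatocytes, so the numbers, which come from the sample titles, were read as pairing in whole testis only. The main fits left this pairing out. Whole-testis calls are therefore those of unpaired fits unless the replicate block is named. Peaks within 5 kb of a gene were counted, with promoters within 1 kb of a start, and sequences were read from the NCBIM37 (mm9) genome. Named genes were all members, the 3 called pathway genes of smallest adjusted p in each direction and the 2 genes most like each member; a pathway gene that this rule names is not reported here. The members and lists were chosen with earlier results of these data known.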

Additional observations from a re-analysis of the deposited data

Results flagged for a closer look

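In 3 genes the effect of CTCF_HET differed between round spermatids and spermatocytes by the test of the difference itself, a contrast added after the values had been seen. For Uhrf1 the difference was 1.26 on the log2 scale. For Tet1 it was 5.38 and for Tet2 5.79, and both rest on 0 counts in all 3 CTCF_HET spermatocyte libraries against 8 to 13 counts in the WT ones, so neither size is a bound. Both genes were under the count filter in CTCF_HET against WT spermatocytes, where those 3 libraries had 1.36 to 4.42% of detected genes at 1 to 9 counts. The same contrast called 33.6% of all genes, and the part of the missing low counts was not tested.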

How the results depend on the processing

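Of the values of single members under an alternative, 1251 kept direction and side of the threshold, 43 gained a call, 55 lost one and 59 changed sign, none of them called before or after. The number of members called changed as follows. DESeq2 called 1 in BORIS_KO whole testis, 5 in BORIS_KO and 4 in CM round spermatids, 1 in BORIS_KO and 1 in CM spermatocytes, and 1 for the CM effect between cell types. The thresholds of the study (adjusted p < 0.001 and fold change > 2) left 0 in CM whole testis, in CTCF_HET and BORIS_KO round spermatids and spermatocytes, and in round spermatids against spermatocytes of CM. The replicate block gave 2 in BORIS_KO and 5 in CM whole testis and 1 in BORIS_KO spermatocytes, and moved no other number of calls by over 1.5 times. Sorted samples share only a number. One fit over all groups gave 4 in CM whole testis, 1 in BORIS_KO and 2 in CM round spermatids, 3 in CTCF_HET and 0 in BORIS_KO spermatocytes, and 5 for RS against SC in CM. At the member loci, the upper 50% of peak heights held 3 WT CTCF peaks. These are the 3 kept ones, and all 3 count as lost there, because the same rule removed their CM counterparts (heights 124, 102 and 295, under 316). Also, a promoter window of 2 kb held 6.

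Leaving out 1 library at a time gave 0 to 4 members in CM whole testis and 0 in both single mutants there, 0 to 2, 2 to 5 and 0 to 3 in round spermatids of CTCF_HET, BORIS_KO and CM, 0 to 2, 1 to 4 and 0 to 3 in their spermatocytes, 5 to 7, 6 to 7 and 1 to 4 for RS against SC in WT, BORIS_KO and CM, and 0 to 1, 1 to 4 and 0 to 2 for the effects of CM, CTCF_HET and BORIS_KO between cell types. A fit that leaves 1 WT spermatocyte library assumes that it varies like the other group.

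Where the sign changed, the reported value or the one under the alternative was smaller than its standard error. With the replicate block these values were -1.79 for Dnmt3a and -1.02 for Tet3 in CTCF_HET spermatocytes, 0.13 for Tet3 in those of BORIS_KO, -0.91 for Tet1 in those of CM, -0.18 for Tet2 in RS against SC of WT and 0.0019 for Dnmt3l in the CM effect between cell types. Without the count filter Dnmt1 was 0.0084 in CM whole testis (0.013 in one fit over all groups) and Dnmt3a 0.0025 in the interaction of the genotypes. Leaving out 1 library gave, in CTCF_HET whole testis, -0.090 to 0.68 for Tet1 and -0.25 to 0.26 for Uhrf1, and for Dnmt1 -0.011 to 0.23 in BORIS_KO and -0.14 to 0.18 in CM. In CM against BORIS_KO it gave -0.23 to 0.052 for Dnmt1, -0.11 to 0.31 for Tet1 and -0.35 to 0.13 for Uhrf1, and in the interaction -0.27 to 0.18 for Dnmt3a, -0.20 to 0.21 for Dnmt3b, -0.52 to 0.21 for Tet1 and -0.46 to 0.11 for Uhrf1. In round spermatids it gave for CTCF_HET -0.042 to 0.14 (Dnmt1), -0.43 to 0.10 (Dnmt3a) and -0.054 to 0.31 (Dnmt3b), for BORIS_KO -0.089 to 0.23 (Dnmt1) and -0.16 to 0.35 (Dnmt3a), and for CM -0.69 to 0.71 (Tet1) and -0.033 to 0.32 (Uhrf1). In spermatocytes it gave for CTCF_HET -0.36 to 1.27 (Dnmt3a), -1.06 to 0.14 (Dnmt3b), -7.45 to 0.22 (Dnmt3l) and -0.76 to 1.89 (Tet3), and for BORIS_KO -0.30 to 0.15 (Tet3). For RS against SC it gave -0.18 to 0.88 for Tet2 in WT and -0.018 to 1.19 for Dnmt3b in CM, and for the CM effect between cell types -0.40 to 1.60 for Dnmt3a and -0.86 to 0.25 for Dnmt3l.

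Over all genes the calls themselves moved: in BORIS_KO whole testis from 9 to 386 (DESeq2) and 1077 (block), in CM whole testis from 4135 to 7043 (block) and to 11, 3 and 4 (without WT library 2, WT library 3 or CM library 3), in CM round spermatids from 1 to 1819 (DESeq2) and 2532 (all groups), in CM spermatocytes from 89 to 3260 and 1068, and in CTCF_HET round spermatids from 3405 to 287 (all groups). The cause was not tested. Depth limits the Tet genes most, with 8 to 13 counts for Tet1 and Tet2 in WT spermatocytes, and peak lists carry no depth.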
